A study of Sus scrofa with 3 samples.

Results

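Expression of 10 genes for lipid droplets and fatty acid handling (PLIN2, CD36, FABP3, FABP4, FABP5, PPARG, PPARA, SCD, FASN and CPT1A) was examined in cells of the porcine line PIE that met lactobacilli before a bacterial challenge. The genes were taken as a fixed set of names, chosen with earlier results of these data known. A probe was counted as theirs where the array design gave it that gene name. All 43 probes came in this way. Probe descriptions added none: 1 probe whose description mentions CD36 belongs to a related scavenger receptor and was left out, and unnamed probes described as similar to SCD and to carnitine palmitoyltransferase I are given apart. This gave 43 of the 43603 probes on the array and 10 of 6841 named genes. Per the labels, PIE is an untransformed line started from the gut epithelium of a newborn pig that had not yet suckled. After 3 days of growth they received Lactobacillus jensenii TL2937, Lactobacillus plantarum TL2766 or plain medium, and were washed 48 h later. All cultures then met molecular patterns (PAMPs) of enterotoxigenic Escherichia coli (ETEC) for 12 h, and 200 ng of total RNA per culture was labelled with Cy3.

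The groups are named ETEC (plain medium, then ETEC PAMPs), TL2937+ETEC and TL2766+ETEC, and each consisted of 1 culture on 1 array. All 3 groups thus carry the ETEC challenge. Unchallenged cells and cells given lactobacilli alone were not analysed here, so a difference below is one between challenged cultures. Both comparisons with ETEC use the same ETEC array. No group had a second culture, so no test was made, and the small number of arrays sets the precision. Array position on the slide, culture and group cannot be told apart. RNA came from whole cultures, where fewer cells of a kind and less RNA per cell cannot be told apart either.

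As background, cells store surplus fatty acids as triglyceride in lipid droplets, which are coated by perilipins. Fatty acids enter through carriers such as CD36, are ferried through the cytosol by fatty acid binding proteins (FABPs), and are then stored, burned in mitochondria or bound by the PPAR nuclear receptors, which switch lipid genes on. In the gut, enterocytes absorb dietary fat by these steps, and lipid droplets also gather in macrophages exposed to bacterial products.

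The unit below is the scaled intensity, the processed fluorescence of a probe divided by its array's 75th percentile and put back on a common linear scale. That percentile lay between 459 and 503 on the 3 arrays, and between 60.9% and 62.5% of gene spots per array were flagged by the scanner software as well above background. Differences are in log2 units, and a negative value is a lower signal in the first group named. Each probe is named by its gene and its rank in brightness within that gene, and a gene is represented by its brightest probe, the one with the highest mean log2 signal over the 3 arrays. Levels of different probes or genes are not comparable, because probes bind with different strength. As a guide to technical error, 25 probes printed in 5 spots each had a median SD of the log2 difference of 0.11 when TL2937+ETEC was set against ETEC, 0.078 when TL2766+ETEC was, and 0.087 when the strains were compared. The largest of these SDs were 0.39, 0.70 and 0.52.

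Of the 43 probes, 33 were well above background on all 3 arrays, 2 on a single array and 8 on none. The probes that fell short belonged to CD36, with 3 of 4, and to FABP4, with all 7. So 9 of the 10 genes could be compared and FABP4 could not. None of the 9 differed 2-fold in any comparison. Among all measured genes, 0.413% differed 2-fold either way between TL2937+ETEC and ETEC (21 of 5083). The share was 0.573% between TL2766+ETEC and ETEC (29 of 5057) and 0.294% between the lactobacillus arrays (15 of 5100). A count of 0 of 9 genes is near these shares.

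At 1.5-fold, 1 of the 9 genes was higher in TL2937+ETEC than in ETEC and 1 was higher in TL2766+ETEC, PLIN2 each time, and none was lower. The background was 1.06% higher and 2.3% lower in the first comparison, and 1.42% higher and 1.5% lower in the second. At 1.2-fold, TL2937+ETEC had 1 gene higher (PLIN2; background 7.32%) and 1 lower (CD36; background 12.4%). TL2766+ETEC had 2 higher (PLIN2 and PPARG; background 8.11%) and 1 lower (CD36; background 8.9%). Between the strains 1 was higher with TL2766 (PPARG again; background 7.47%) and none lower (background 4.27%). PPARG is counted here through PPARG-1, which ranks first only because of its TL2766+ETEC signal. By the mean of its 3 probes, 0.09, it would not pass in the TL2766+ETEC comparison with ETEC. The median difference of the 9 genes was -0.05 in TL2937+ETEC and 0.03 in TL2766+ETEC, beside -0.04 and 0.0018 for all genes. The single genes ran both ways, from -0.45 to 0.77 with TL2937 and from -0.47 to 0.60 with TL2766.

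**Figure D1:**
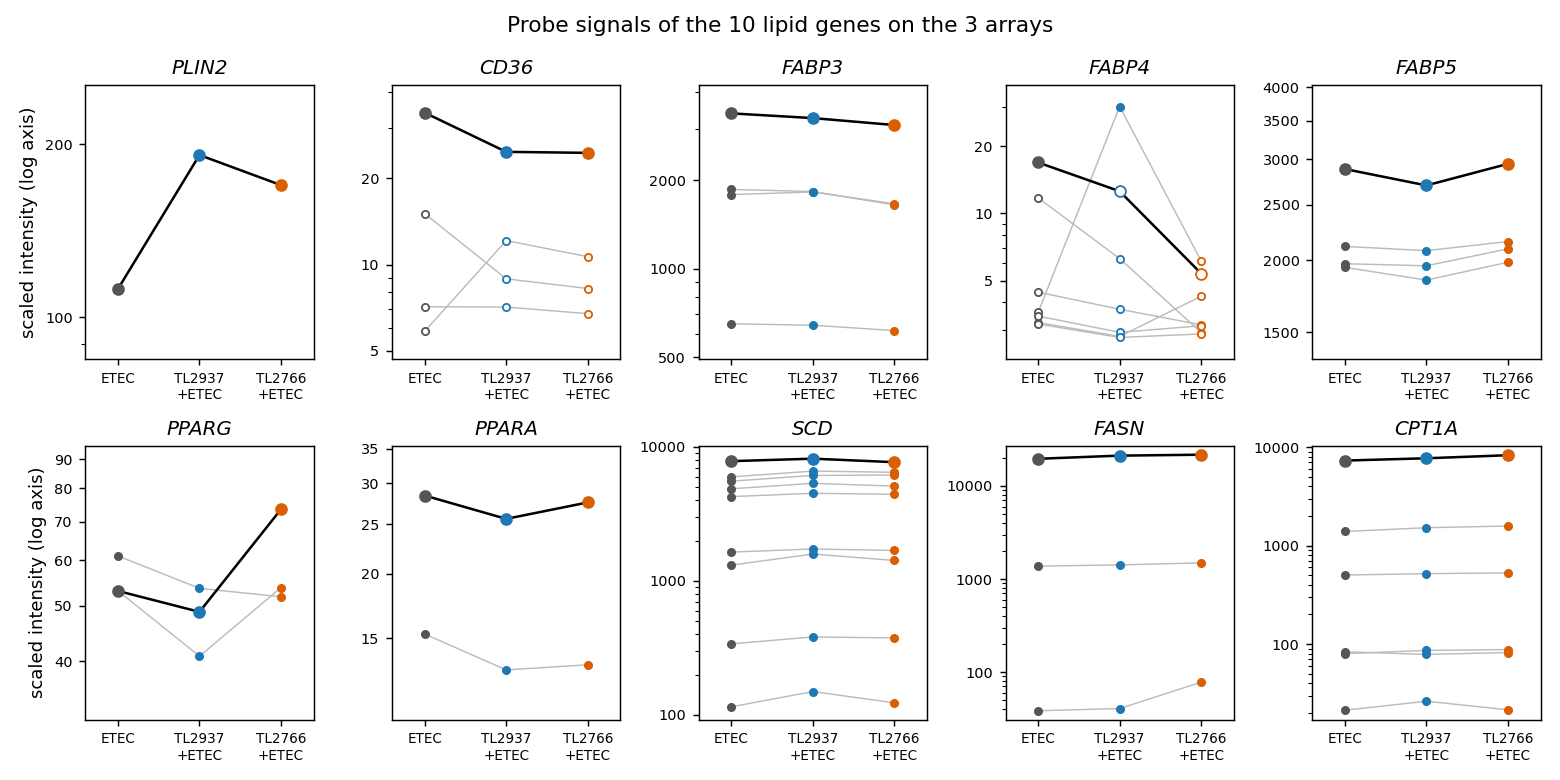
Scaled intensity (log axis with a range of its own in each panel) of every probe of the 10 genes in the 3 groups, with 1 array per group and no error bars. The black line and large points are the brightest probe, grey lines are other probes, filled points were well above background and open points were not; PLIN2 stands at 112, 192 and 170, while all FABP4 lines hold open points.

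PLIN2, the perilipin that coats lipid droplets in most cell types and is stabilised by lipid, was the gene of this set that differed most from ETEC with both strains. Its signal was 112 in ETEC, 192 in TL2937+ETEC and 170 in TL2766+ETEC. Both lactobacillus arrays were above ETEC, by 0.77 (1.71-fold) for TL2937 and 0.60 (1.52-fold) for TL2766. Between the strains the difference was -0.17, so TL2766+ETEC read 1.13-fold lower. Counted from the highest, PLIN2 ranked 26 of 5083 genes in the TL2937 comparison and 66 of 5057 in the TL2766 comparison.

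The value of PLIN2 rests on a single probe in a single spot per array, so no second probe could be set beside it. The sequence is shown because that whole result hangs on it. The probe starts at base 934 of the transcript NM_214200 in the array design:
PLIN2-1: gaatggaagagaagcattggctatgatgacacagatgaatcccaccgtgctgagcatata

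The scanner software put the error of this spot at 10.5%, 10.1% and 10.2% of its signal on the 3 arrays. Bright probes such as FASN-1 and SCD-1 were put at 10% on every array. The PLIN2 figure is thus near a common floor and is not a spread measured for this spot. With another background correction (normexp, which models signal and background together and adds an offset) the differences were 0.54 and 0.43. Among probes of one gene that all lay at a scaled intensity of 50 to 200, the SD of the difference had a median of 0.12 and a 95th percentile of 0.35 over 255 other genes in the TL2937 comparison. It was 0.11 and 0.39 over 259 genes in the TL2766 comparison. Both PLIN2 differences are larger than these spreads, which cover probes and not cultures.

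The genes whose signal over the 3 arrays ran most like that of PLIN2 were CDH11, CDCA7, MYB, B3GALNT1 and RNASE10, by the distance between centred log2 values among 5027 genes measured on all 3 arrays. CDH11, a cadherin of cell adhesion, read 18.2, 31.0 and 28.0 (distance 0.018), and CDCA7, a chromatin protein of dividing cells, read 622, 1025 and 928 (distance 0.039). MYB, a transcription factor of progenitor cells, read 42.4, 76.2 and 66.4 (distance 0.053). All were lowest on the ETEC array and highest with TL2937. With 3 arrays a profile has only 3 points, and many genes can share one.

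CD36, a membrane receptor that takes up long-chain fatty acids and oxidised lipoproteins, was dim. Its one usable probe, CD36-1, read 33.9 in ETEC, 24.8 in TL2937+ETEC and 24.6 in TL2766+ETEC. ETEC was thus the highest, and the lactobacillus arrays were level with each other (difference -0.01). The differences from ETEC were -0.45 (1.37-fold lower) and -0.47 (1.38-fold lower). They ranked 241 of 5083 and 152 of 5057 from the lowest.

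These CD36 values depend on the background setting. With normexp, whose offset of 50 is itself above the scaled CD36-1 readings, they shrank to -0.26 and -0.088. The difference between the strains became 0.17. The share of the offset in this was not tested. Among probes of one gene under a scaled intensity of 50, for genes outside the set, the SD had a median of 0.24 and a 95th percentile of 0.65 in the TL2937 comparison, and 0.22 and 0.69 in the TL2766 comparison. The CD36 differences lie inside the upper of these spreads. The remaining 3 CD36 probes read between 5.85 and 15.1 on every array and were not well above background on any.

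Of the intracellular carriers, FABP3, the form typical of heart and skeletal muscle, was bright and nearly level. FABP3-1 read 3385 in ETEC, 3262 in TL2937+ETEC and 3089 in TL2766+ETEC. Its differences from ETEC were -0.05 and -0.13. All 4 probes of the gene were below ETEC in TL2766+ETEC, between -0.18 and -0.08, whereas they ran from -0.05 to 0.03 in TL2937+ETEC, where quantile normalization turned the difference of FABP3-1 to 0.0053. All 4 were also lower with TL2766 than with TL2937, by -0.15 to -0.06.

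Sequences of FABP3 probes are shown because they lie apart on the transcript NM_001099931 (starts at bases 338 and 197) and gave the same sign in TL2766+ETEC, -0.18 and -0.08:
FABP3-2: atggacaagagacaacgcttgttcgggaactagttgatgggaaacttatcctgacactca
FABP3-4: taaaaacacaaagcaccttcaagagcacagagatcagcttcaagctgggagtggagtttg

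FABP3-2 read 1864, 1833 and 1651 in the order ETEC, TL2937+ETEC and TL2766+ETEC, and FABP3-4 read 650, 642 and 616. Both were lowest on the TL2766+ETEC array. Among probes of one gene above 1000, for genes outside the set, the SD of the difference had a median of 0.048 and a 95th percentile of 0.12 in that comparison. At most 1.13-fold, the FABP3 differences are small, and without replicate cultures their size cannot be set against culture spread.

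FABP5, the carrier found in skin and many epithelia, was as steady. FABP5-1 read 2885 in ETEC, 2701 in TL2937+ETEC and 2945 in TL2766+ETEC. The lowest value was that of TL2937+ETEC. All 4 probes were below ETEC there (-0.09 to -0.01) and all 4 were above it in TL2766+ETEC (0.03 to 0.09), although the latter difference turned to -0.02 for FABP5-1 under normexp. Between the strains the 4 probes ran from 0.05 to 0.12, higher with TL2766, where the median of all genes was 0.043. In TL2937+ETEC against ETEC that median was -0.04, and FABP5-2 (-0.02) and FABP5-3 (-0.01) lay above it. The FABP5 probes are not independent, since FABP5-2, FABP5-3 and FABP5-4 share runs of 51 to 56 bases.

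FABP4, the carrier of adipocytes, macrophages and capillary endothelium, was not measurable as a gene. Of its 7 probes, 5 were not well above background on any array. FABP4-1 read 16.9 in ETEC, where it was well above background, and 12.6 and 5.38 on the TL2937+ETEC and TL2766+ETEC arrays, where it was not. FABP4-2 did the opposite, with 3.60 in ETEC, 30.2 in TL2937+ETEC, its only reading well above background, and 6.12 in TL2766+ETEC.

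FABP4-1 in ETEC was 1.35-fold above its own undetected signal in TL2937+ETEC, a ratio of readings with errors of 20.3% and 26.1% by the scanner software. As a bound, FABP4-1 was at least 1.44-fold higher in ETEC than in TL2766+ETEC. A bound sets the brighter value against the lowest signal detected on the array where the probe was dim, and leaves out spot error. FABP4-2 was at least 2.35-fold higher in TL2937+ETEC than in ETEC and at least 2.56-fold higher than in TL2766+ETEC. The probes thus disagree on which array was highest, and no direction is given for the gene. FABP4-1 is shown as the probe with the highest mean log2 signal over the arrays, and it starts at base 387 of NM_001002817:
FABP4-1: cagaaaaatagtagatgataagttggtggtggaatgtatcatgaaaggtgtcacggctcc

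The probes of FABP3, FABP4 and FABP5 shared no run longer than 9 bases with each other, in 72 pairs compared. The same held for 806 pairs of probes of different members.

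PPARG, the nuclear receptor that drives adipocyte formation and fat storage and also acts in gut epithelium, gave a different answer for each probe. PPARG-1 read 53.1 in ETEC, 48.8 in TL2937+ETEC and 73.6 in TL2766+ETEC. By this probe TL2766+ETEC was the highest, by 0.47 over ETEC and by 0.59 (1.51-fold) over TL2937+ETEC. PPARG-2 read 61.0, 53.6 and 51.8 in the same order, so that TL2766+ETEC was the lowest, by -0.24 against ETEC. PPARG-3 read 53.1, 40.8 and 53.8, with ETEC and TL2766+ETEC level (0.02) and TL2937+ETEC the lowest.

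The sequences are shown because these probes cover almost the same stretch of NM_214379 and still differ. Capitals mark the run of 53 bases that PPARG-1 and PPARG-2 have in common:
PPARG-1: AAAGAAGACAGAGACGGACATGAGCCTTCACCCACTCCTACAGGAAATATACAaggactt
PPARG-2: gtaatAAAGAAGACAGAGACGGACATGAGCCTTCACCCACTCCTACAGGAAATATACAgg

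Over this shared stretch the probes differed from each other by 0.71 in the difference of TL2766+ETEC from ETEC, and by 0.64 in that between the strains, but by only 0.066 in the difference of TL2937+ETEC from ETEC. The SD over the 3 probes was 0.36 in the first of these and 0.33 in the second. Over genes outside the set at a scaled intensity of 50 to 200, the 95th percentiles were 0.39 and 0.31. PPARG lies at the lower edge of that range, and under 50 they were 0.69 and 0.62. For TL2937+ETEC against ETEC all 3 probes were lower, between -0.38 and -0.12. For TL2766+ETEC the mean of the 3 probes was 0.09, and normexp put PPARG-1 at 0.17. PPARG counted at 1.5-fold between the strains, as 1 of the 9 genes beside a background of 1.02% higher and 0.392% lower, and that count rests on PPARG-1 alone. The signal that makes the count also picked the probe, since PPARG-2 was the brighter of the pair in ETEC and in TL2937+ETEC and differed by -0.05 between the strains.

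PPARA, the nuclear receptor that turns on fatty acid burning and ketone body genes, was close to the detection limit. PPARA-1 read 28.4 in ETEC, 25.6 in TL2937+ETEC and 27.5 in TL2766+ETEC. PPARA-2 read 15.3, 13.0 and 13.3, where the lowest detected signals of the arrays were 12.9, 11.6 and 11.8. Both probes were highest on the ETEC array. The differences were -0.15 and -0.23 in TL2937+ETEC and -0.04 and -0.20 in TL2766+ETEC, within the SD of 0.22 to 0.24 that is the median for genes this dim. PPARA-2, which starts at base 1216 of NM_001044526, is shown as the dimmest of the 33 probes detected on all 3 arrays:
PPARA-2: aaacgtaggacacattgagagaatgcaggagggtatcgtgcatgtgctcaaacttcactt

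**Figure D2:**
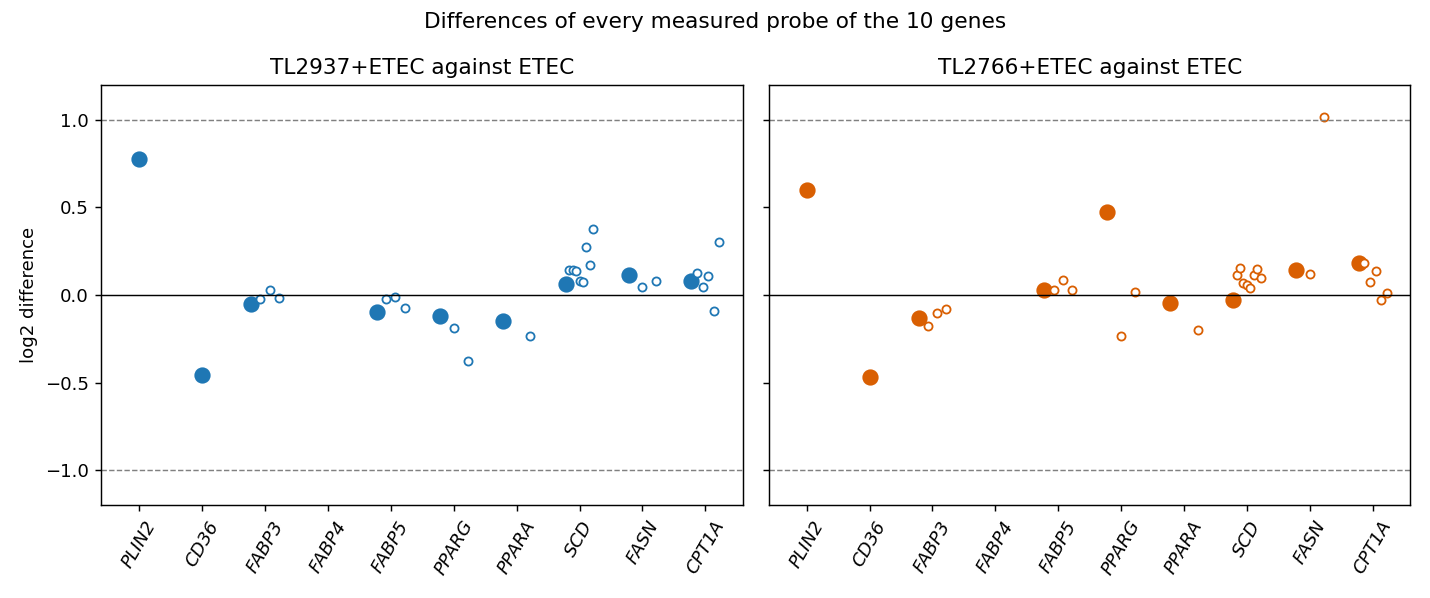
Log2 difference of every probe that was well above background on both arrays (vertical axis, 0 is equal signal, dashed lines are 2-fold) for the 10 genes, with TL2937+ETEC against ETEC on the left and TL2766+ETEC against the same ETEC array on the right; large filled points are the brightest probe of a gene and open points its other probes. PLIN2 stands highest among the brightest probes against ETEC (0.77 and 0.60), CD36 lowest (-0.45 and -0.47), 1 probe of FASN reaches 1.02 in TL2766+ETEC, and FABP4 has no point.

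Of the synthesis enzymes, SCD, the desaturase that makes oleic from stearic acid, was higher in TL2937+ETEC than in ETEC by all 9 of its probes. SCD-1 read 7833 in ETEC, 8175 in TL2937+ETEC and 7696 in TL2766+ETEC. The probe differences ran from 0.06 to 0.38 with a median of 0.14. In TL2766+ETEC they ran from -0.03 to 0.15, and 8 of 9 probes were higher than ETEC. The exception was SCD-1 itself (-0.03), so that the mean of all probes (0.08) had the opposite sign. Probes of one gene share an array and an RNA sample, so their count is no replicate of a condition.

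The widest SCD difference came from SCD-9, the probe nearest the start of the transcript NM_213781 (base 395, where the other probes start at bases 4084 to 5044). It read 115 in ETEC, 149 in TL2937+ETEC and 123 in TL2766+ETEC. TL2937+ETEC was the highest, by 0.38 over ETEC, and the strains differed by -0.28. It is shown as the only one of the 9 from that end:
SCD-9: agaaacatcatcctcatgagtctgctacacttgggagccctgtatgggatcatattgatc

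A further probe described as resembling rat stearoyl-CoA desaturase 1 carries no gene name and was left out of the counts. It read 41.5, 57.8 and 35.0, with differences of 0.48 and -0.25 from ETEC.

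FASN, the enzyme that builds palmitate from acetyl and malonyl units, differed little by its brighter probes. FASN-1 read 19604 in ETEC, 21195 in TL2937+ETEC and 21687 in TL2766+ETEC, with differences of 0.11 and 0.15 from ETEC. FASN-2 read 1375, 1419 and 1493, with differences of 0.04 and 0.12. ETEC was the lowest array by both probes. FASN-3, a dim probe, read 38.4, 40.6 and 77.8, so that TL2766+ETEC was 2.03-fold above ETEC (1.02) while TL2937+ETEC was level with it (0.08).

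FASN-2 is shown as the FASN probe whose differences lay close to those of the brightest one, and it starts at base 7111 of NM_001099930:
FASN-2: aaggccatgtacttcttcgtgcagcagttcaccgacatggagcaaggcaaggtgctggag

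Averaging the 3 probes would raise the FASN difference in TL2766+ETEC from 0.15 to 0.43. FASN-3 was the only one of the 33 probes measured on all 3 arrays to reach 2-fold, and it is named after its value was seen. The SD over the 3 FASN probes was 0.51 in that comparison and 0.034 in TL2937+ETEC.

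CPT1A, the gate through which long-chain fatty acids enter mitochondria to be burned, was slightly higher with both strains by its brighter probes. CPT1A-1 read 7297 in ETEC, 7698 in TL2937+ETEC and 8267 in TL2766+ETEC. CPT1A-2 read 1390, 1518 and 1580. ETEC was the lowest and TL2766+ETEC the highest by both, and the differences from ETEC were 0.08 and 0.13 with TL2937 and 0.18 for both probes with TL2766.

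Of the 6 CPT1A probes, 5 were higher than ETEC in each comparison, and CPT1A-5 was the exception (-0.09 and -0.03). The whole range was -0.09 to 0.30 in TL2937+ETEC and -0.03 to 0.18 in TL2766+ETEC. Between the strains CPT1A-1 differed by 0.10, and the mean of all 6 probes by -0.0021, so the order of the strains depends on the probe. CPT1A-2 is shown as the second probe of that order, starting at base 2273 of NM_001129805:
CPT1A-2: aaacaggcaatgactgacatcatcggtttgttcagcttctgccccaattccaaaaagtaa

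One further probe described as part of pig carnitine palmitoyltransferase I has no gene name and was left out. It read 38.2, 52.6 and 48.5, with differences of 0.46 and 0.34 from ETEC.

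Other genes of the same pathways came from a list of 113 names, of which 92 were on the array and 78 or 79 were measured in each comparison. By its brightest probe, no measured gene of this list differed 1.5-fold. Some other probes did, such as those of PDK4, which ran from -1.07 to 0.71 in TL2937+ETEC against ETEC. At 1.2-fold, 9 list genes were higher and 4 lower in TL2937+ETEC than in ETEC, and 65 lay between (all genes: 7.32% higher and 12.4% lower). In TL2766+ETEC the numbers were 10 higher, 7 lower and 62 between (all genes: 8.11% and 8.9%). Between the strains they were 2, 3 and 73 (all genes: 7.47% and 4.27%). The counts by role that follow are at 1.2-fold too. The list medians were -0.03, -0.0052 and 0.01, each within 0.1 of the median of all genes. By brightest probes, PLIN2 was above every measured gene of the list in both comparisons with ETEC. The gap was clear with TL2937 (0.77 beside 0.51 for CIDEB, the next) and narrow with TL2766 (0.60 beside 0.57 for CIDEB). Over all probes the order changed with TL2766, where the highest probes of AGPAT1 (0.89) and PDK4 (0.61) were above PLIN2. With TL2937 the highest list probes, those of PDK4 (0.71) and SLC27A1 (0.62), were below it.

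Among the storage and lipolysis genes, which act on droplets as PLIN2 does, 2 of 14 were higher and 1 lower in TL2937+ETEC (all genes: 7.32% and 12.4%), and 4 were higher and 1 lower in TL2766+ETEC (all genes: 8.11% and 8.9%). CIDEB, a droplet and lipoprotein assembly protein, read 17.9 in ETEC, 25.6 in TL2937+ETEC and 26.6 in TL2766+ETEC (differences 0.51 and 0.57 from 1 dim probe). The gene counted as lower was BSCL2 in both comparisons (-0.47 and -0.38 by its brightest probe). Its other probe had the opposite sign (0.08 and 0.02). DGAT2, counted as higher in TL2766+ETEC, passed narrowly (1.202-fold) by a dim probe. The perilipin PLIN1, typical of adipocytes, was not well above background on any array. PNPLA3, a droplet lipase, read 1406, 1256 and 1703 and differed by 0.44 between the strains.

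Of the genes for uptake, binding and activation, beside CD36 and the FABPs, 1 of 8 was higher and 1 lower in TL2937+ETEC, and 1 was higher and 2 lower in TL2766+ETEC, to be read against the same shares of all genes. Of the synthesis genes, beside SCD and FASN, 1 of 15 was higher and none lower in TL2937+ETEC, and 1 was higher and 1 lower in TL2766+ETEC. ELOVL4, an elongase of very long fatty acids, read 57.8, 54.3 and 44.9, and ACACB, the mitochondrial acetyl-CoA carboxylase whose product blocks CPT1A, read 48.3, 53.6 and 43.1. Both were lowest on the TL2766+ETEC array, by -0.28 and -0.31 against TL2937+ETEC. These are readings of the brightest probe. For TL2937+ETEC against ETEC the 3 ACACB probes ran from -0.80 to 0.15, so no direction is given for that comparison.

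Of the oxidation and ketone body genes, beside CPT1A, 3 of 23 were higher and 1 lower in TL2937+ETEC (all genes: 7.32% and 12.4%), and 2 were higher and 2 lower in TL2766+ETEC (all genes: 8.11% and 8.9%). ACAA1, a peroxisomal thiolase, read 208, 293 and 263 (0.49 and 0.34), with the same sign in its other probe. PDK4 is counted as higher in both comparisons by its brightest probe (0.50 and 0.29), but its 9 probes did not share a sign. Of the regulators and export genes, 2 of 18 were higher and 1 lower in TL2937+ETEC, and 2 of 19 were higher and 1 lower in TL2766+ETEC.

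ANGPTL4, a secreted inhibitor of lipoprotein lipase and a target of the PPAR receptors, had the lowest value of the list in TL2937+ETEC. It read 2125 in ETEC, 1433 in TL2937+ETEC and 1632 in TL2766+ETEC. Both lactobacillus arrays were below ETEC, by -0.57 and -0.38, and its 3 probes had the same sign in each comparison. MTTP, which loads fat onto lipoproteins, read 23.3, 32.0 and 30.5 from 1 dim probe (0.46 and 0.39).

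**Figure D3:**
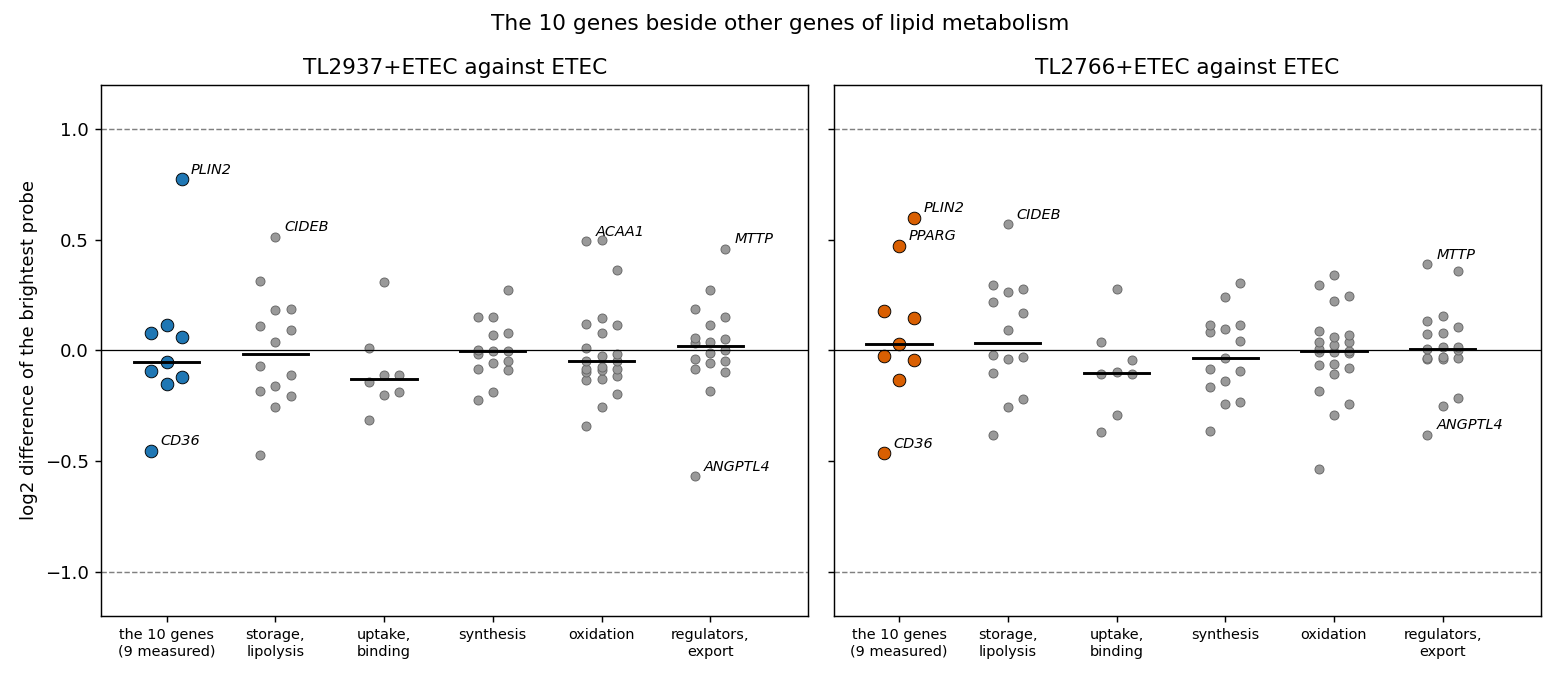
Log2 difference from ETEC (vertical axis, brightest probe of each gene) for TL2937+ETEC on the left and TL2766+ETEC on the right. The 9 measured genes of the set are coloured, and the other measured lipid genes of the list are grey, by role. Black bars are medians, dashed lines are 2-fold, and both panels use the same ETEC array. PLIN2 lies above all grey points in both panels, and no point reaches the dashed lines.

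Markers of the cell types the cultures could hold were read from the same arrays. Of 7 epithelial markers on the array, KRT8 and CLDN3 were well above background on all 3 arrays, EPCAM, KRT18 and CLDN4 were not on any by their brightest probe, and CDH1 and VIL1 were on 2. For EPCAM, 2 of 18 probes were well above background on at least 1 array. Their summed scaled intensity was 90.3 to 102. Of 5 endothelial markers, 4 were well above background on all arrays and VWF on 2, with a sum of 143848 to 148976, mostly PECAM1 (84031 to 86702) and CDH5 (55877 to 60380). These sums come from different probes and are not set against each other. The epithelial markers were each at or near the detection limit of their arrays, and the cells are called by the line's name only.

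Endothelial cells hold FABP4, CD36 and PPARG, so these markers are given beside them. The endothelial sum was 148976 in ETEC, 143848 in TL2937+ETEC and 144199 in TL2766+ETEC. TEK, the receptor for angiopoietins, read 1340, 2419 and 2189, and KDR, a VEGF receptor, read 532, 798 and 753. Both were lowest on the ETEC array, as PLIN2 was, and TEK lay within 0.079 of its profile. The other 3 markers ran the other way and were highest in ETEC, with VWF at 22.7, 15.5 and 13.8. Their part in the PLIN2 difference was not tested.

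Adipocyte and macrophage markers bear on PLIN2, FABP4, CD36 and PPARG in the same way. Of 6 adipocyte markers, LIPE, CFD and LEP were well above background on all arrays (sum of the list 3004 to 3225, highest in ETEC), and ADIPOQ, PLIN1 and CIDEC were not on any by their brightest probe. Of 4 macrophage and leukocyte markers, CD14 and AIF1 were detected on all arrays and the leukocyte antigen PTPRC on none. That sum was 699 in ETEC, 792 in TL2937+ETEC and 829 in TL2766+ETEC, most of it CD14 (623, 723 and 741). AIF1 read 62.0, 56.8 and 66.9, lowest in TL2937+ETEC, and CD163 was well above background on 1 array. Striated muscle markers, which share FABP3, summed to 27552, 21952 and 24048, most of it ACTA1 (24639, 19291 and 21400). CKM ran the other way (348, 415 and 442), and MB was not well above background on any array. Fibroblast markers summed to 184, 161 and 163. Their part in the values of the 10 genes was not tested.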

How the data were processed

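RNA of 3 PIE cultures was read on 1-colour Agilent porcine arrays on 1 slide. Per the file headers, the deposited processed intensity of each spot came from Agilent Feature Extraction 10.7.3.1, with background subtracted and no scaling between arrays. The genome build is not given in the sources used here. The authors' value table held the same intensity to within 0.496%. Control and outlier spots (4 to 9 per array) were left out, no spot was saturated, log2 intensity was centred on each array's 75th percentile, and spots of a probe were averaged.

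Of 43603 probes, 14285 have a single gene name, 4 several and 29314 none. Names are those of the array, updated through a RefSeq table of assembly Sscrofa11.1 (2846 by gene identifier, 1145 by accession, 44 by synonym). Gene differences used the brightest probe, well above background on both arrays. The text names all 10 genes, up to 4 list genes per comparison by size with all probes of one sign, and the 5 profiles most like PLIN2. Others are there because a statement turns on them. The members and lists were chosen with earlier results of these data known. Probe sequences are the deposited ones. A list gene that the rule names and 1 probe sequence are not reported here. Alternatives were normexp (offset 50), quantile and median scaling, the authors' table, other filters, the mean of probes, outliers kept and 1.5-fold. The steps were tested on simulated data with the same noise at every brightness, which does not cover the wider spread of dim probes. R 4.3.3 with limma 3.58.1 and Python 3.11.15 with pandas 2.3.3, numpy 2.4.6 and matplotlib 3.10.9 were used.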

Additional observations from a re-analysis of the deposited data

How the results depend on the processing

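Of 102 summary values under the alternatives, 84 stayed close to the reported value and 18 moved. Close means within technical spread, or within 1.5 times for a count. Some alternatives could move little by design. The authors' table held almost the same intensity, and only 4 to 9 spots per array were outliers. The count of 84 is thus no measure of stability on its own. At 1.5-fold 1 of the 9 measured genes passed in each comparison. With no background filter, 1 of the 10 genes, FABP4, passed at 2-fold in TL2766+ETEC against ETEC and against TL2937+ETEC. Of all 6841 named genes, 464 and 414 did so in these comparisons. FABP4 was lower in TL2766+ETEC by FABP4-1, whose reading there (5.38) was not well above background. All genes called at 2-fold numbered 21, 29 and 15 (TL2937+ETEC against ETEC, TL2766+ETEC against ETEC, and between the strains). They were 7, 7 and 1 under normexp, 387, 464 and 414 with no background filter, 6, 6 and 0 above the median signal of detected probes, and 171, 148 and 72 at 1.5-fold. The share of higher calls was 57.1%, 55.2% and 73.3%. It was 71.4%, 71.4% and 0% under normexp, of few calls, and 37.98%, 35.8% and 46.4% with no background filter. The median of the members in TL2937+ETEC became 0.062 above the median signal, a filter that PLIN2, CD36, PPARG and PPARA did not pass. Fewer genes were tested under the stricter filter and more with no filter, and a threshold of 1.5-fold can only add calls. For the other settings the cause was not tested. Of 204 values of single genes, 18 moved, under normexp or the mean of probes. Under the settings that kept it, PLIN2 ranged from 0.54 to 0.78 in TL2937+ETEC and from 0.43 to 0.60 in TL2766+ETEC. No scaling moved the median of all genes by over 0.1. No paired analysis was possible because each group has 1 array. A slide block was not run, as there was 1 slide, and no replicate could be left out. Dim probes (CD36, FABP4, PPARA, FASN-3) are limited by background, and the spread between cultures is unknown.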
